A study of Mus musculus with 4 samples.

Results

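The genes described here are 10 members of the folliculin and Rag GTPase branch of lysosomal nutrient sensing: Flcn, Fnip1, Fnip2, Rraga, Rragb, Rragc, Rragd, Lamtor1, Mtor and Rptor. They were taken by name, as the non-control probes whose gene name on the array is a member, which gave 21 of 56605 probes and 10 of 24841 genes. The members, and the other gene lists below, were chosen with earlier results of these data known. Counts and medians of these genes beside all genes therefore describe a chosen set and test nothing. All 10 genes had a probe well above background on every array. Of the 21 probes, 15 were well above background on all 4 arrays and 6 on none of them.

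The samples were 4 cultures of RAW264, a macrophage-like line from BALB/c mice, with 1 culture in each group. The groups were siRNA against Tfe3/Tfeb with iron, siRNA against Tfe3/Tfeb without iron, siRNA against GFP with iron, and siRNA against GFP without iron; mouse cells do not carry GFP, so the siRNA against GFP is the control. Iron was 500 µM ferric chloride, given 48 hours after transfection and kept for 24 hours, and all 4 cultures were transfected. Total RNA was hybridised to Agilent 1-colour expression arrays, and the comparisons ask how iron and siRNA against the lysosomal transcription factors Tfe3 and Tfeb bear on transcript levels.

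Folliculin, encoded by Flcn, acts with its partners Fnip1 and Fnip2 on the surface of the lysosome, where it switches the Rag GTPases RagC and RagD into the nucleotide state that presents Tfeb and Tfe3 to the kinase complex mTORC1. The Rags work as pairs, RagA or RagB with RagC or RagD, held to the membrane by the Ragulator complex, and they dock mTORC1 through its subunit raptor. When this route is inactive, Tfeb and Tfe3 enter the nucleus and activate genes of lysosomes and autophagy, and among the targets described for these factors are Flcn, Fnip1, Fnip2, Rragc and Rragd themselves.

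The promoters are shown because Tfe3 and Tfeb bind E-box letters of the CACGTG type. RefSeq promoter windows of the build GRCm38.p6, each 300 bases long with 250 bases before and 50 after the gene's start, matched 10 of 10 members. CACGTG was found in the windows of 4 of the 10 members, against 7.15% of 32851 windows in the table. The 4 windows are given 5′ to 3′ on the gene's strand, with each CACGTG in capitals, and lie at chr11:54437929-54438228 (plus strand) for Fnip1, chrX:153139708-153140007 (plus strand) for Rragb, chr4:123917183-123917482 (plus strand) for Rragc and chr7:101905587-101905886 (plus strand) for Lamtor1.
Fnip1: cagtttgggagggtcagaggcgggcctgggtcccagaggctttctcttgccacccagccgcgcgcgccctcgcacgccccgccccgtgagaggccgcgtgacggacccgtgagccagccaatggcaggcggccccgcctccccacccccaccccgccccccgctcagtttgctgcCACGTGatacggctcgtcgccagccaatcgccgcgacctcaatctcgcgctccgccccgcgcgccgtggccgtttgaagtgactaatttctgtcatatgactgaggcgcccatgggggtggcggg
Rragb: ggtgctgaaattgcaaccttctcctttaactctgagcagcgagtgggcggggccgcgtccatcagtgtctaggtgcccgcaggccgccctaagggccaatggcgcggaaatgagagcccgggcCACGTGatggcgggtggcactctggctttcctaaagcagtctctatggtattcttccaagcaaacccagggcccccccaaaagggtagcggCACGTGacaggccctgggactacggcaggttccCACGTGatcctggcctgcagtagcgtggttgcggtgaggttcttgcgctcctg
Rragc: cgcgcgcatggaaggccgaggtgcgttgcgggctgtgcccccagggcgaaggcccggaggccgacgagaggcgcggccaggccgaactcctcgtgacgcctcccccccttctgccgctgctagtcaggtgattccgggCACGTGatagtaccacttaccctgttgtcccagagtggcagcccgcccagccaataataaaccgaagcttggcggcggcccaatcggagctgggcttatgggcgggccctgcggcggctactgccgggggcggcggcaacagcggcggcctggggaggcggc
Lamtor1: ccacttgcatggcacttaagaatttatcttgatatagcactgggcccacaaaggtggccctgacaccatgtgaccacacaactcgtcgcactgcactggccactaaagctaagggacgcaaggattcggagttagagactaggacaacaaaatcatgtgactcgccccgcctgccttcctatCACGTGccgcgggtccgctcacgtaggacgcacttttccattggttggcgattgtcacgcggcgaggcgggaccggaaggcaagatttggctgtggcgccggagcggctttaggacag

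The CACGTG of the Fnip1 window began 75 bases before the start of the gene, that of Rragc 112 bases before it and that of Lamtor1 68 bases before it. Rragb held 3 copies, which began 127, 36 and 3 bases before the start. The longer TCACGTG, which overlaps CACGTG, was found on either strand in the same 4 windows and in 3.77% of all windows. TCATGTG was found in the Lamtor1 window alone among the members, and in 3.77% of all windows.  All searches covered both strands, and a match or its absence describes these letters in this window and nothing about binding.

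Levels are log2 ratios of a probe's processed signal to the 75th percentile of its own array, taken over non-control spots, so that 0 is a signal equal to that percentile. Levels of different probes are not on a common scale and are compared across arrays only. Each group held 1 array, so differences between groups have no replicate check and were not tested. The only error available is the spot SD, the spread of a log2 difference that repeated spots of the same probe give, which covers spotting and scanning but not the spread between cultures. It was 0.063 above a level of 2, 0.11 between -2 and 2, 0.27 between -4 and -2, and 0.53 below -4. A difference of at least 1.5-fold or 2-fold was counted as a description, and it was read against the share of all genes that differed as much.

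The 75th percentile of the processed signal lay between 592.7 and 636.3 over the 4 arrays, and no spot was saturated. All 8 macrophage markers were well above background on all 4 arrays, as were 2 of 5 lymphocyte, 1 of 4 fibroblast, 1 of 4 endothelial and 0 of 4 epithelial markers. The bright Tfe3 probe read 68.4% of siGFP with iron and 60.6% without iron in the cultures labelled siTfe3/Tfeb. The other Tfe3 probe, well above background on only 1 array, read 54% with iron and 48.6% without iron, with a spot SD of 0.53. The 4 Tfeb probes read between 90.7% and 112% of siGFP with iron and between 88.3% and 105% without iron, with 3 of the 4 below siGFP in each setting and every difference smaller than 2 spot SDs. Among the related factors, Tfec was dim, with log2 levels between -4.55 and -3.40 over the arrays. In the siTfe3/Tfeb cultures Tfec differed by 0.04 on the log2 scale with iron (spot SD 0.27) and -0.65 without iron (spot SD 0.42). Both Tfec values were smaller than 2 spot SDs. Mitf differed by -0.05 with iron and -0.09 without iron, each with a spot SD of 0.063.

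**Figure D1:**
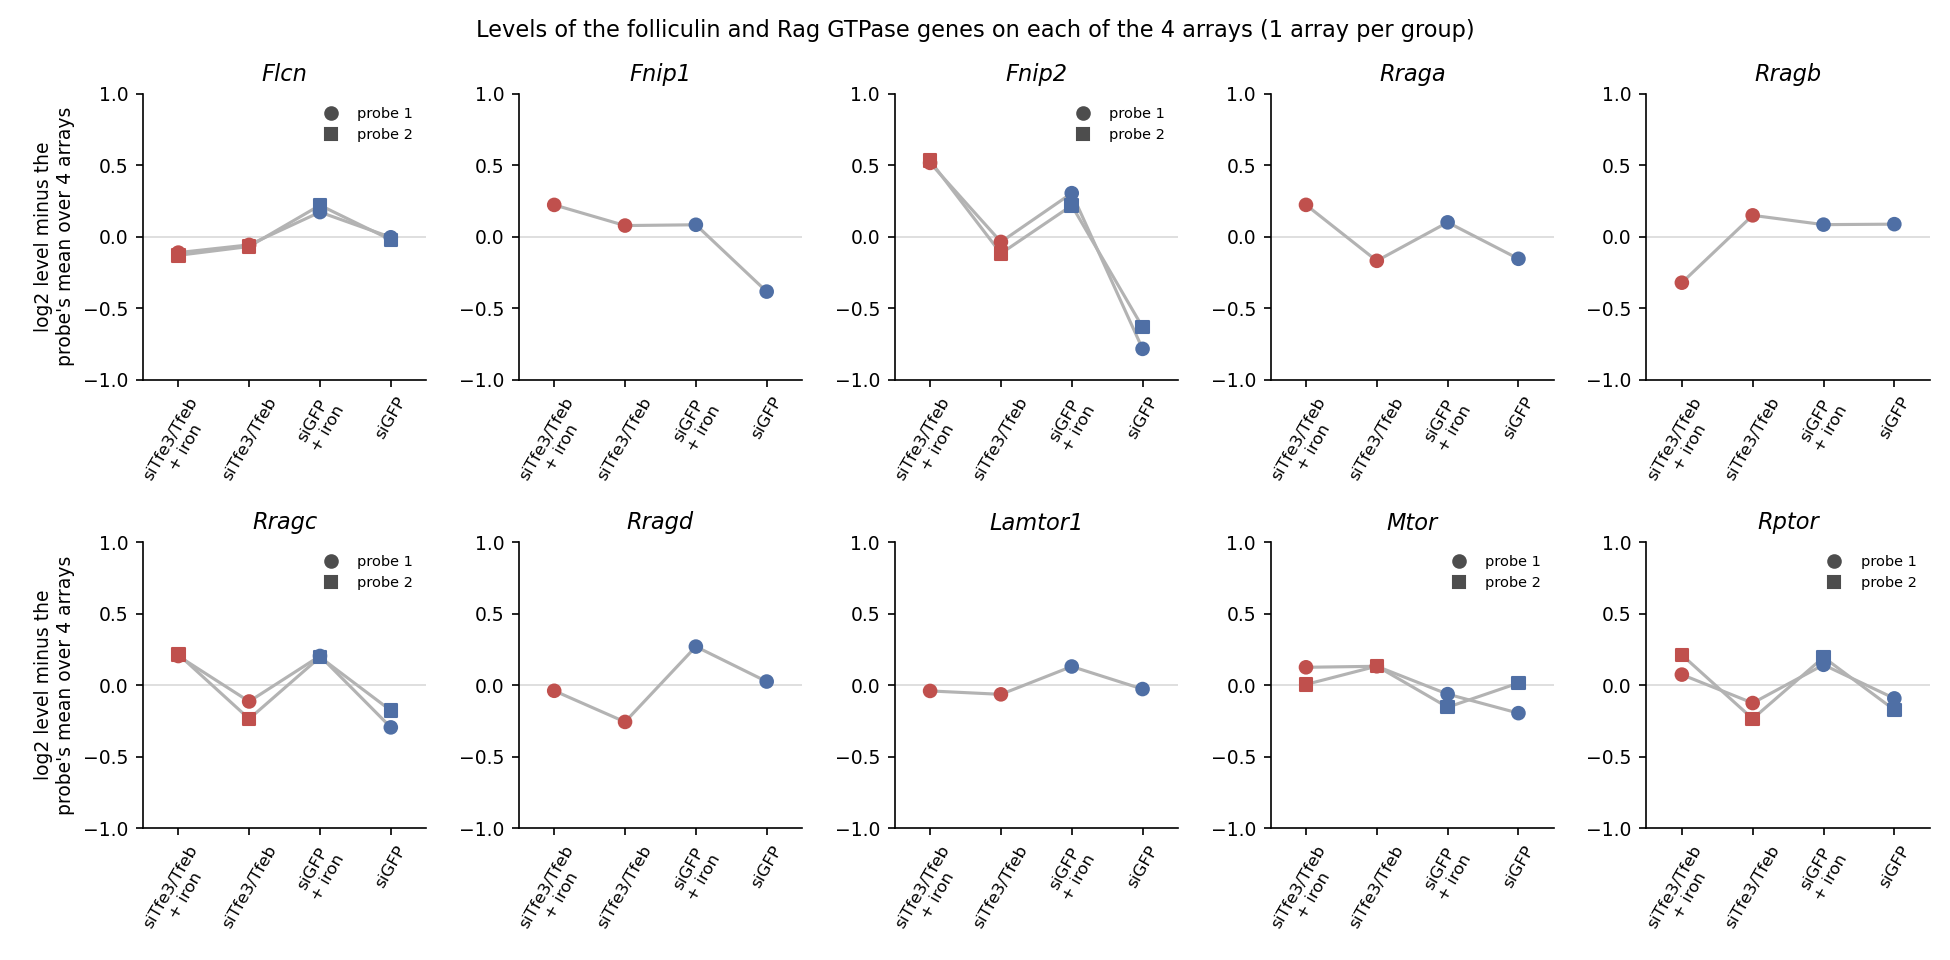
Log2 level of each measured probe minus its own mean over the 4 arrays (vertical axis), for the 4 groups (horizontal axis, 1 array each, red for siTfe3/Tfeb and blue for siGFP), with circles for probe 1 and squares for probe 2. The range over the arrays was 1.30 for Fnip2 and between 0.19 and 0.61 for each of the other 9 genes, and siGFP without iron was the lowest array for both Fnip2 probes.

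Fnip2 had the widest range of the 10 genes over the arrays. The folliculin partner encoded by Fnip2 was read by a probe at mm9 chr3:79260201-79260260 (minus strand) at log2 levels of 2.18 in siTfe3/Tfeb with iron, 1.62 in siTfe3/Tfeb, 1.96 in siGFP with iron and 0.88 in siGFP. As processed signal, that is 2679 in siTfe3/Tfeb with iron, 1962 in siTfe3/Tfeb, 2447 in siGFP with iron and 1138 in siGFP. Both iron-treated cultures were above their untreated counterparts, siGFP without iron was the lowest, and each step in the order of the 4 arrays was larger than the spot SD. With iron, the difference was 0.55 in siTfe3/Tfeb cells (1.47-fold, spot SD 0.088) and 1.09 in siGFP cells (2.12-fold, spot SD 0.11). Of the genes measured in siTfe3/Tfeb cells, 5.18% were at least as much higher with iron, and in siGFP cells 1.12% were.

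The second Fnip2 probe, at mm9 chr3:79263585-79263644 (minus strand) and 3384 bases from the first, gave levels of -0.16 in siTfe3/Tfeb with iron, -0.81 in siTfe3/Tfeb, -0.47 in siGFP with iron and -1.32 in siGFP. Its arrays stood in the same order as those of the first probe. Iron was associated with a difference of 0.65 in siTfe3/Tfeb cells (1.57-fold) and 0.85 in siGFP cells (1.80-fold), each with a spot SD of 0.11. Its 60 bases are shown, with those of the second Rragc probe, because these 2 probes gave another reading of the genes with the largest iron differences in siGFP cells among those with more than 1 measured probe.
Fnip2 probe 2: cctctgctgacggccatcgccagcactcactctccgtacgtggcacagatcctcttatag
Rragc probe 2: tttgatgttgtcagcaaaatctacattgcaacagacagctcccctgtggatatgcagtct

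Probes of the paralogues in the set were compared with each other only. They were not compared with the other gene's transcript, so whether a probe also reads its paralogue was not assessed. The longest run shared by a Fnip1 and a Fnip2 probe was 8 bases, by a Rraga and a Rragb probe 5 bases, and by a Rragc and a Rragd probe 9 bases. Whether a probe lies in coding sequence or in a UTR was not analysed here.

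Fnip1 encodes the other folliculin partner and had 1 probe, at mm9 chr11:54331644-54331703 (plus strand). Its log2 level was 1.76 in siTfe3/Tfeb with iron, 1.62 in siTfe3/Tfeb, 1.62 in siGFP with iron and 1.15 in siGFP. The siGFP culture without iron was again the lowest, and the siTfe3/Tfeb culture without iron and the siGFP culture with iron differed by less than the spot SD. The iron difference was 0.14 in siTfe3/Tfeb cells and 0.47 in siGFP cells (1.38-fold), with a spot SD of 0.11 for both.

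Flcn itself, the tumour suppressor of Birt-Hogg-Dubé syndrome, varied less. Its brighter probe, at mm9 chr11:59605260-59605319 (minus strand), read 1.89 in siTfe3/Tfeb with iron, 1.94 in siTfe3/Tfeb, 2.17 in siGFP with iron and 2.00 in siGFP. The other measured probe, 83 bases away at mm9 chr11:59605343-59605402, read 1.57 in siTfe3/Tfeb with iron, 1.64 in siTfe3/Tfeb, 1.92 in siGFP with iron and 1.68 in siGFP. For both probes siGFP with iron was the highest array and siTfe3/Tfeb with iron the lowest. The iron difference was -0.05 in siTfe3/Tfeb cells and 0.18 in siGFP cells by the first probe. By the second it was -0.06 in siTfe3/Tfeb cells and 0.24 in siGFP cells, and both siTfe3/Tfeb values were smaller than the spot SD of 0.11. The remaining Flcn probe, built on another transcript model, was not above background on any array.

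Rragc encodes RagC, the Rag on which folliculin acts. Its brighter probe, at mm9 chr4:123613729-123613788 (plus strand), read 3.39 in siTfe3/Tfeb with iron, 3.08 in siTfe3/Tfeb, 3.39 in siGFP with iron and 2.90 in siGFP. Both iron-treated arrays were above both untreated arrays and differed from each other by less than the spot SD. The iron difference was 0.32 in siTfe3/Tfeb cells (1.25-fold) and 0.50 in siGFP cells (1.41-fold), with a spot SD of 0.063. The other Rragc probe, at mm9 chr4:123602017-123602076, read 0.46 in siTfe3/Tfeb with iron, 0.0075 in siTfe3/Tfeb, 0.44 in siGFP with iron and 0.066 in siGFP, an iron difference of 0.45 in siTfe3/Tfeb cells and 0.37 in siGFP cells. The 2 probes thus put the larger iron difference in different cultures.

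Rraga encodes RagA, which pairs with RagC or RagD, and was read at mm9 chr4:86222897-86222956 (plus strand). Its level was 3.16 in siTfe3/Tfeb with iron, 2.77 in siTfe3/Tfeb, 3.04 in siGFP with iron and 2.78 in siGFP. Both iron-treated arrays were above both untreated ones, which differed from each other by less than the spot SD. With iron it was 0.39 higher in siTfe3/Tfeb cells and 0.25 in siGFP cells, with a spot SD of 0.063.

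Rragb and Rragd were dim. Rragb, which encodes the RagA relative RagB, read -3.77 in siTfe3/Tfeb with iron, -3.30 in siTfe3/Tfeb, -3.36 in siGFP with iron and -3.36 in siGFP at mm9 chrX:149592751-149592810 (plus strand). The siTfe3/Tfeb culture with iron was the lowest and the other 3 arrays lay within the spot SD of 0.27 of each other. Its iron difference was -0.47 in siTfe3/Tfeb cells and -0.0034 in siGFP cells, and its siRNA difference -0.41 with iron and 0.06 without it. With normexp background correction the siTfe3/Tfeb value was as small as -0.11.

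Rragd, which encodes the RagC relative RagD, had 3 probes, and only a probe designed on a complementary DNA clone, at mm9 chr4:33110136-33110195 (plus strand), was well above background. That probe read -2.79 in siTfe3/Tfeb with iron, -3.00 in siTfe3/Tfeb, -2.48 in siGFP with iron and -2.72 in siGFP. Arrays next to each other in level differed by less than the spot SD of 0.27. With iron it was 0.22 higher in siTfe3/Tfeb cells and 0.24 higher in siGFP cells, and the siRNA difference was -0.31 with iron and -0.28 without it. The 2 probes designed on the RefSeq transcript, the nearer of them 10184 bases away, were not well above background on any array, so the level of that transcript has only an upper bound here.

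Lamtor1, the lipid-anchored Ragulator subunit that ties the complex to the lysosomal membrane, was read at mm9 chr7:109060334-109060393 (plus strand). Its level was 3.94 in siTfe3/Tfeb with iron, 3.91 in siTfe3/Tfeb, 4.11 in siGFP with iron and 3.95 in siGFP. The siGFP culture with iron was the highest, and the other 3 arrays lay within the spot SD of 0.063 of each other. Its iron difference was 0.02 in siTfe3/Tfeb cells and 0.16 in siGFP cells. Lamtor1 had the narrowest range of the 10 genes over the arrays, 0.19.

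The kinase gene Mtor had 2 measured probes, 102234 bases apart, that differed in sign with iron in siGFP cells. The brighter, at mm9 chr4:147829016-147829075 (plus strand) and designed on a transcript model other than the RefSeq transcript, read 0.15 in siTfe3/Tfeb with iron, 0.16 in siTfe3/Tfeb, -0.038 in siGFP with iron and -0.17 in siGFP. The RefSeq-based probe, at mm9 chr4:147931250-147931309, read -0.77 in siTfe3/Tfeb with iron, -0.64 in siTfe3/Tfeb, -0.92 in siGFP with iron and -0.76 in siGFP. The iron difference was -0.0071 in siTfe3/Tfeb cells and 0.13 in siGFP cells by the first probe, and by the second it was -0.13 in siTfe3/Tfeb cells and -0.17 in siGFP cells, each with a spot SD of 0.11.

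Rptor encodes raptor, the mTORC1 subunit that the Rags bind. Its bright probe, at mm9 chr11:119760596-119760655 (plus strand), read 2.19 in siTfe3/Tfeb with iron, 1.99 in siTfe3/Tfeb, 2.25 in siGFP with iron and 2.02 in siGFP. Both iron-treated arrays were above both untreated arrays. The iron difference was 0.20 in siTfe3/Tfeb cells and 0.23 in siGFP cells. A dimmer probe designed on a complementary DNA clone, at mm9 chr11:119693359-119693418, read -2.68 in siTfe3/Tfeb with iron, -3.13 in siTfe3/Tfeb, -2.70 in siGFP with iron and -3.07 in siGFP. Its iron difference was 0.45 in siTfe3/Tfeb cells and 0.37 in siGFP cells, with a spot SD of 0.27. The other 2 Rptor probes were not well above background on any array.

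**Figure D2:**
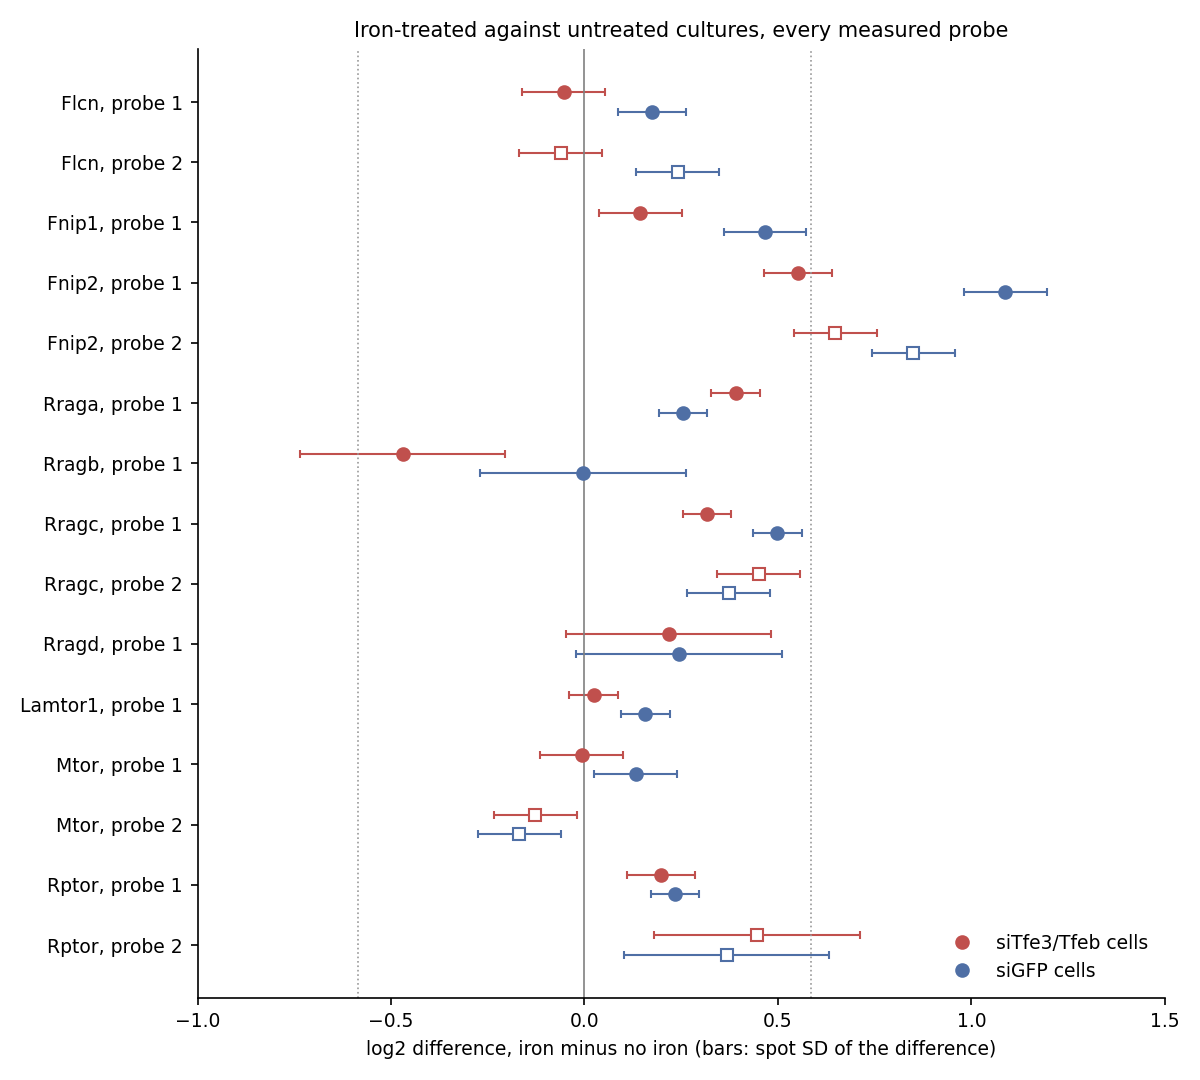
Log2 difference between iron-treated and untreated cultures (horizontal axis) for each of the 15 measured probes, in siTfe3/Tfeb cells (red) and siGFP cells (blue). Filled circles are the brightest probe of a gene, open squares the other, bars the spot SD of the difference and dotted lines 1.5-fold; probe 1 of Fnip2 lies at 0.55 in siTfe3/Tfeb cells and at 1.09 in siGFP cells.

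Over the set, by the brightest probe of each gene, 7 of the 10 members were above 0 with iron in siTfe3/Tfeb cells, against 49.1% of 14120 genes measured there, and 9 of 10 in siGFP cells, against 46% of 14274 genes. In siTfe3/Tfeb cells the count was 6 with quantile normalization and 9 with median centring. In siGFP cells it was 8 with the mean over all probes and 10 with normexp correction. The median member difference was 0.17 in siTfe3/Tfeb cells, where the median of all genes was -0.0065, and 0.24 in siGFP cells, where it was -0.02. No member was 1.5-fold higher with iron in siTfe3/Tfeb cells, where 4.58% of genes were, and none was 1.5-fold lower, where 3.37% were. Fnip2 lay just under that fold by its brightest probe, and with median centring (0.61) or the mean over its probes (0.60) it was the 1 member past it. In siGFP cells 1 of 10 members, Fnip2, was at least 1.5-fold higher, against 4.2% of genes, and it was also 2-fold higher, against 1.4%. No member was 1.5-fold lower in siGFP cells, against 1.86% of genes. In siTfe3/Tfeb cells 4 members were higher with iron by at least 2 spot SDs, against 19.4% of genes, and with quantile normalization 3 were, without Rptor. In siGFP cells 7 were, against 16.1% of genes, and with quantile normalization or median centring 6 were, without Flcn.

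In these bulk samples, more cells expressing a gene and more of its RNA per cell cannot be told apart. The 5 members with 2 measured probes gave 25 comparisons of probe pairs over the 5 contrasts, and 18 of these had the same sign. The share among all genes with more than 1 measured probe was not counted, so 18 of 25 describes these probes only. The 5 contrasts come from the same 4 arrays, so the 25 are not separate readings. The 2 measured Flcn probes lie only 83 bases apart.

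**Figure D3:**
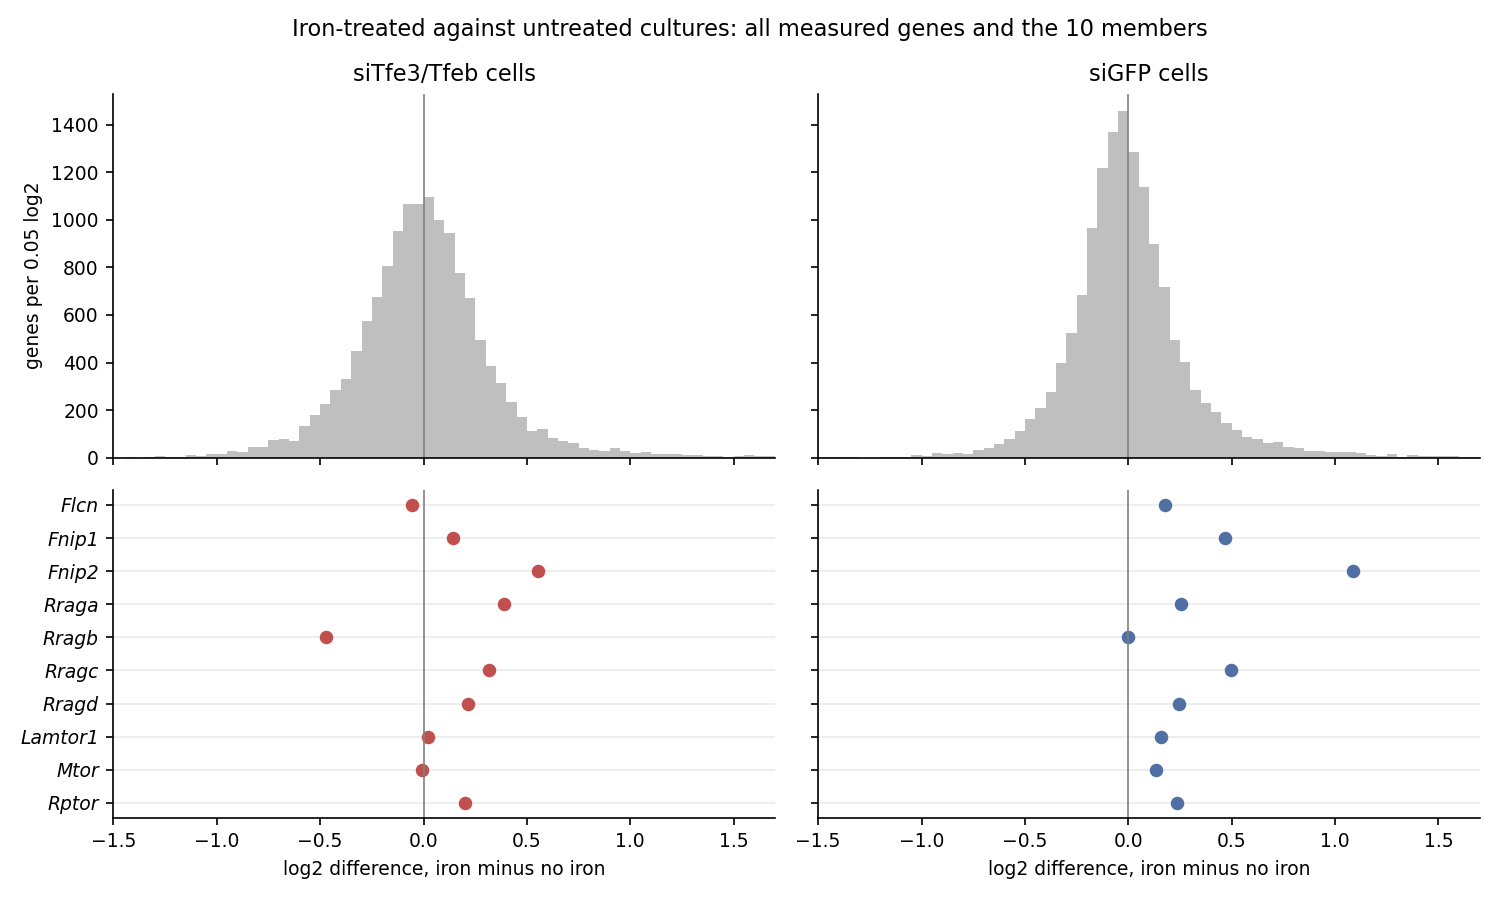
Upper panels show how many measured genes had each log2 iron difference (horizontal axis, in steps of 0.05), and lower panels mark the 10 members by their brightest probe, for siTfe3/Tfeb cells (left) and siGFP cells (right). The median of the members was 0.17 on the left and 0.24 on the right, against -0.0065 (left) and -0.02 (right) for all genes, and Fnip2 is the rightmost member in both.

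The comparison of siRNAs asks how the members stood when Tfe3/Tfeb siRNA was given. With iron, 4 of 10 members were higher in siTfe3/Tfeb cells than in siGFP cells, against 47.2% of 14064 genes, with a median difference of -0.03 beside -0.02 for all genes. Without iron, 5 of 10 were higher, against 46.5% of 14314 genes, with a median of 0.02 beside -0.03 for all genes. The count with iron was 6 with median centring. That without iron was 7 with quantile normalization and 4 with normexp correction. As a set, then, the members' middle lay close to that of all genes in both settings, and centring the arrays on their median in place of the 75th percentile moved the median with iron to 0.06 for the members and to 0.075 for all genes.

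With iron, no member differed by 1.5-fold between the siRNAs, against 3.97% of genes higher and 5.62% lower; with median centring that split of the 1.5-fold genes was 844 higher and 544 lower in place of 559 and 791. Flcn was lower in siTfe3/Tfeb cells with iron by both probes, at -0.28 (spot SD 0.088) and -0.35 (spot SD 0.11), and median centring reduced the first to -0.19. Lamtor1 was at -0.17 with iron, and at -0.076 with median centring (spot SD 0.063). Fnip2 was 0.21 higher by the first probe and 0.31 by the second.

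Without iron, Fnip2 was 0.75 higher in siTfe3/Tfeb cells than in siGFP cells (1.68-fold, spot SD 0.11), and the second probe gave 0.51 (1.43-fold). It was the 1 member of 10 at least 1.5-fold higher, against 6.25% of genes, and none was 1.5-fold lower, against 7.58%. Of all genes measured there, 3.44% were at least as much higher as Fnip2. Fnip1 was 0.46 higher (1.38-fold), a size that 9.95% of genes reached. Mtor was higher by 0.33 with the first probe and 0.12 with the second, and Rragc by 0.18 with the first probe while the second gave -0.06. The other 6 genes differed by no more than 0.28 in size, and none of them by more than 2 spot SDs.

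The comparison of iron in siGFP cells and that of siRNAs without iron share the siGFP array without iron, the lowest array for Fnip1, Fnip2 and the brighter probes of Rragc and Mtor. Fnip2 was 1.09 higher with iron and 0.75 higher with Tfe3/Tfeb siRNA, and Fnip1 0.47 higher with iron and 0.46 higher with Tfe3/Tfeb siRNA. Rragc was 0.50 higher with iron and 0.18 higher with Tfe3/Tfeb siRNA, and Mtor 0.13 and 0.33 higher in those comparisons. A low reading on that array alone would raise both values of a gene. It would also lower the difference of the iron responses given below. The part of that array in these values was not tested.

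**Figure D4:**
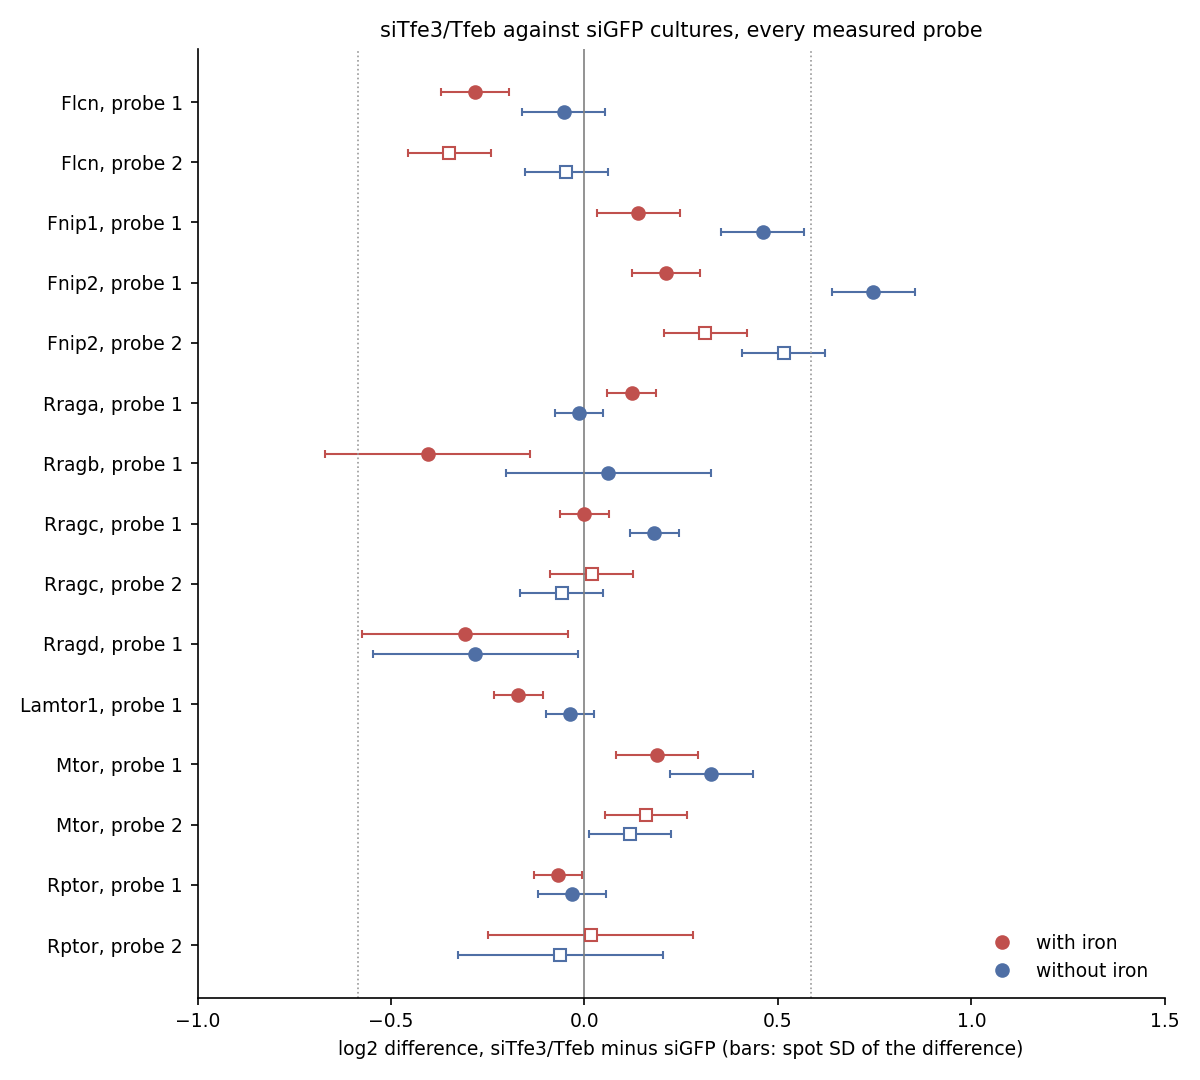
Log2 difference between siTfe3/Tfeb and siGFP cultures (horizontal axis) for each of the 15 measured probes, with iron (red) and without iron (blue). Filled circles are the brightest probe of a gene, open squares the other, bars the spot SD of the difference and dotted lines 1.5-fold; Fnip2 probe 1 lies at 0.21 with iron and 0.75 without it, and Flcn probe 1 at -0.28 with iron and -0.05 without it.

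The difference of the iron responses, siTfe3/Tfeb minus siGFP, was below 0 for 9 of the 10 members. Of the 13859 genes measured on all arrays, 49.9% were below 0. The median was -0.16 for the members beside 0.000397 for all genes. The siGFP array without iron enters this difference too, so it is no separate reading from the comparisons that share that array. The difference was -0.54 for Fnip2 (spot SD 0.14), and 3.02% of genes were at least as low. For Fnip1 it was -0.32 (spot SD 0.15) and for Rragc -0.18 (spot SD 0.089), and with median centring these were -0.25 for Fnip1 and -0.11 for Rragc. The second probe gave -0.20 for Fnip2, and for Flcn -0.30 where the first gave -0.23. For Rragc (0.08), Mtor (0.04) and Rptor (0.08) the second probe had the other sign. By the brightest probe, Rraga was the member above 0, at 0.14. With median centring 3 members were above 0, and with normexp correction or the mean over all probes 2 were. Mtor (-0.14, spot SD 0.15), Rptor (-0.04, spot SD 0.11) and Rragd (-0.03, spot SD 0.38) differed by less than their spot SD. No member reached 1.5-fold in either direction, against 2.64% of genes above and 2.48% below. The median over the members was -0.093 with the mean over all probes of a gene, and -0.090 with median centring, where that of all genes was 0.071.

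Around the members stand other genes of the pathway, in 7 lists of 44 genes, of which 43 were measured and Sesn3 was not. With iron, 18 of the 43 were above 0 in siTfe3/Tfeb cells (median -0.025), against 49.1% of all genes. In siGFP cells 14 were (median -0.075), against 46%. The middle of the neighbouring genes thus lay below that of the members in both. At least 1.5-fold higher with iron were 2 genes in siTfe3/Tfeb cells, against 4.58% of all genes, and 1 in siGFP cells, against 4.2%. As much lower were 1 gene in siTfe3/Tfeb cells, against 3.37%, and 0 in siGFP cells, against 1.86%. Between siRNAs, 24 of 43 were higher in siTfe3/Tfeb cells with iron (median 0.095), against 47.2% of all genes. Without iron 27 were (median 0.066), against 46.5%. In each setting 5 were at least 1.5-fold higher, against 3.97% of all genes with iron and 6.25% without it. As much lower were 0 with iron, against 5.62%, and 1 without it, against 7.58%.

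The next list held the other 4 Ragulator subunits, the lysosomal amino acid transporter Slc38a9 and Borcs6, a subunit of the lysosome-positioning complex BORC. None of these 6 genes was past 1.5-fold in any of these 4 comparisons. Between 1.86% and 7.58% of all genes were past it in a given direction of each comparison. Lamtor3, a roadblock-fold Ragulator subunit like Lamtor2, was 0.21 higher with iron in siTfe3/Tfeb cells and 0.39 higher in siGFP cells. Lamtor4 was lower with Tfe3/Tfeb siRNA, at -0.34 with iron and -0.47 without it.

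Upstream of the Rags, GATOR1 is the complex that inactivates RagA and RagB, KICSTOR holds it at the lysosome and GATOR2 opposes it. None of the 7 GATOR1 and KICSTOR genes and none of the 5 GATOR2 genes passed 1.5-fold in these comparisons. Of all genes, between 1.86% and 7.58% passed it in a given direction of each comparison, so none in lists this short says little. Nprl2, a GATOR1 subunit, was -0.31 with iron in siTfe3/Tfeb cells and -0.25 in siGFP cells, and 0.29 higher with Tfe3/Tfeb siRNA with iron and 0.35 higher without it. Nprl2 was dim, and each of these differences had a spot SD of 0.27. Wdr24, a GATOR2 subunit, was 0.35 higher with Tfe3/Tfeb siRNA with iron and 0.10 higher without it.

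Among the 5 measured cytosolic amino acid sensors, Castor1, an arginine sensor that binds GATOR2, was higher with Tfe3/Tfeb siRNA by 1.40 with iron (2.64-fold) and 1.16 without it (2.24-fold). Castor1 was dim, with levels between -3.78 and -2.36 and a spot SD of 0.27. Its iron differences were small, -0.025 in siTfe3/Tfeb cells and -0.26 in siGFP cells. Sesn1, a sestrin that binds GATOR2, was lower with iron, at -0.51 in siTfe3/Tfeb cells and -0.40 in siGFP cells. Of the 5 measured genes of Rheb and its inhibitor, the TSC complex, none passed 1.5-fold. Between 1.86% and 7.58% of all genes did so in a given direction of each comparison.

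Among the 7 other subunits of the mTOR complexes, Prr5l, which belongs to mTORC2, was higher with iron by 1.04 in siTfe3/Tfeb cells (2.06-fold) and 1.24 in siGFP cells (2.37-fold). Deptor, an inhibitory subunit of both mTOR complexes, was higher with Tfe3/Tfeb siRNA by 0.74 with iron and 1.13 without it, and -0.59 with iron in siTfe3/Tfeb cells and -0.20 in siGFP cells. Prr5, another mTORC2 subunit, was lower with Tfe3/Tfeb siRNA, at -0.55 with iron and -0.76 without it.

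The 8 genes for mTORC1 substrates included 3 at least 1.5-fold higher with Tfe3/Tfeb siRNA in each setting, against 3.97% of all genes with iron and 6.25% without it, with list medians of 0.33 with iron and 0.26 without it. Lpin1, a phosphatidate phosphatase, was 0.94 higher with iron and 0.61 without it. Ulk1, the kinase that starts autophagy, was 0.60 higher with iron and 0.84 without it. Eif4ebp1, the translation repressor 4E-BP1, was 0.60 higher with iron and 0.65 without it.

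Other described targets of Tfe3 and Tfeb gave a point of comparison for iron. Of these 13 genes, all measured, 9 were above 0 with iron in siTfe3/Tfeb cells (median 0.21), against 49.1% of all genes. In siGFP cells 11 were (median 0.26), against 46%. The median of the 10 members was 0.17 in siTfe3/Tfeb cells and 0.24 in siGFP cells. Gpnmb, a lysosomal glycoprotein of macrophages, was 0.97 higher with iron in siTfe3/Tfeb cells and 1.42 higher in siGFP cells. Sqstm1, the autophagy receptor p62, was 1.07 higher in siTfe3/Tfeb cells and 1.13 higher in siGFP cells. With Tfe3/Tfeb siRNA 7 of the 13 were higher with iron, against 47.2% of all genes, and 10 without it, against 46.5%. Wipi1, an autophagy protein that binds phosphoinositides, was 1.16 higher with Tfe3/Tfeb siRNA with iron and 1.20 without it.

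**Figure D5:**
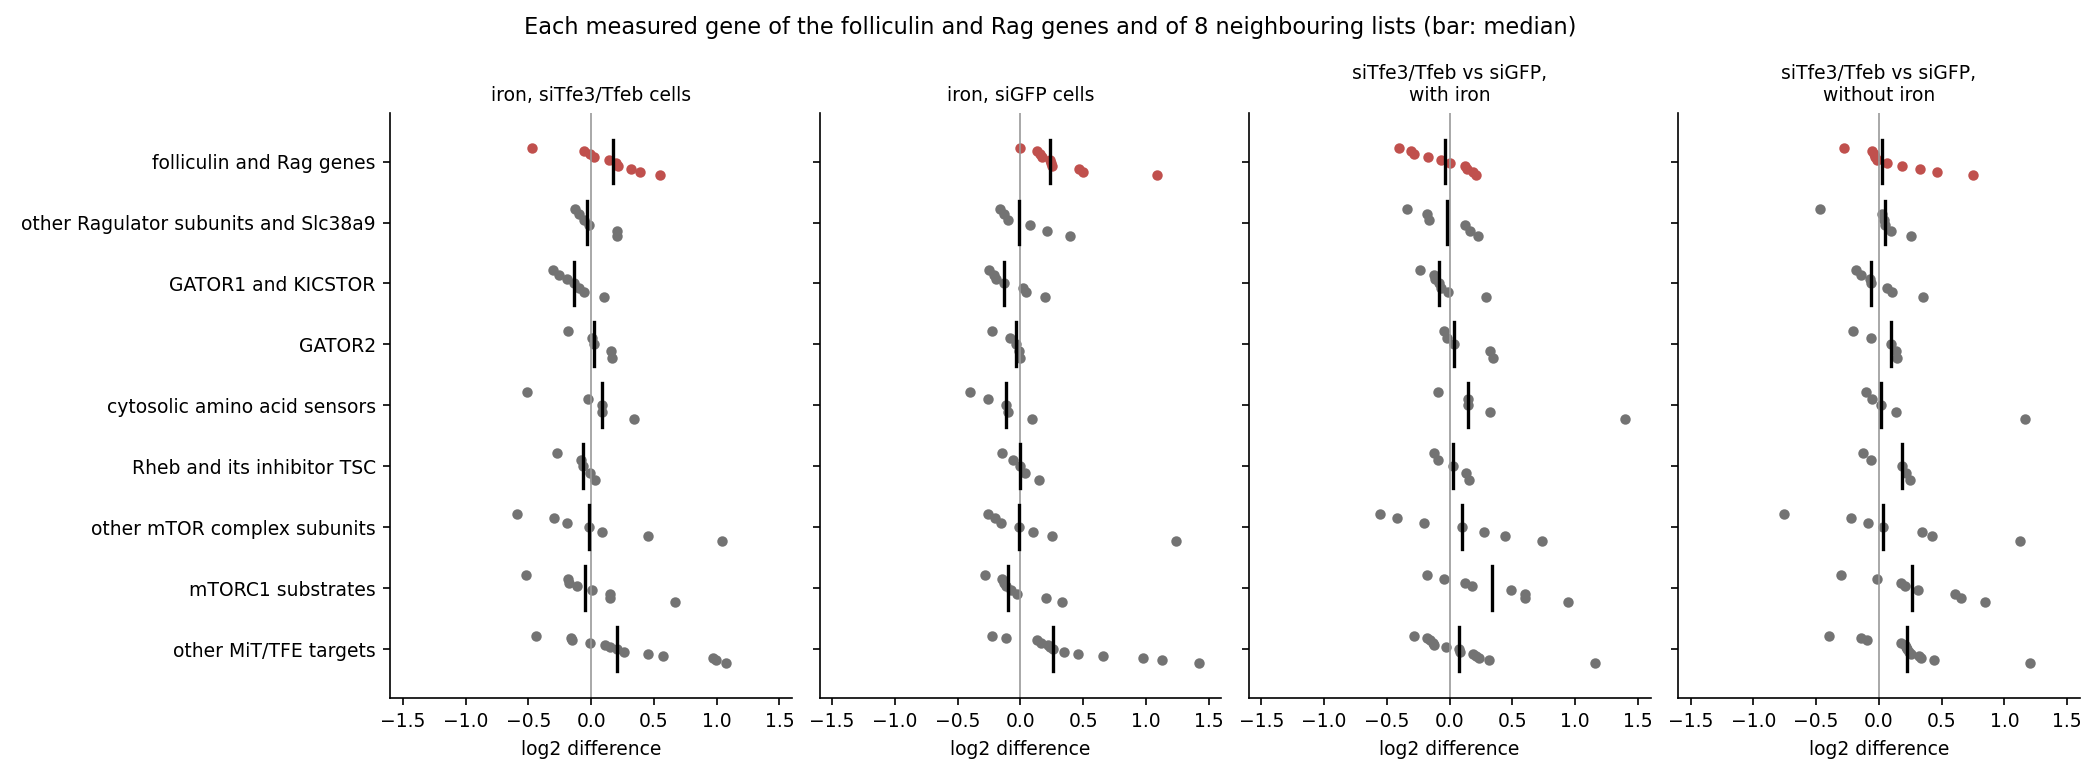
Log2 difference (horizontal axis) of each measured gene in 4 comparisons, with the 10 folliculin and Rag genes in red, 8 other lists in grey and a black bar at each list's median. In the iron panels the median of the red points is 0.17 in siTfe3/Tfeb cells and 0.24 in siGFP cells, while the median over the 43 genes of the 7 pathway lists is -0.025 in siTfe3/Tfeb cells and -0.075 in siGFP cells.

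Genes with a pattern like that of Fnip2 were sought over the 4 arrays among 13858 other genes, by the root mean square difference between centred log2 levels. The nearest 5 were Airn at 0.069, Apbb2 at 0.072, Tecpr1 at 0.088, Tcp11l1 at 0.097 and Dennd11 at 0.098. Dennd11 carries the older name E330009J07Rik on the array, and Airn was matched by symbol. Among the members, Fnip1 was nearest to Fnip2 at 0.28 and Rragc next at 0.30, while Rragb was farthest at 0.62. With 4 arrays many genes lie near any pattern, and the measure is a description only.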

How the data were processed

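Per the labels, total RNA of each culture was labelled with Cy3 and hybridised to 1 array. Scans were quantified in Agilent Feature Extraction 12.0.3.1, per the submitters' processing notes. The processed intensity of each spot in the deposited scanner files was, per the file headers, corrected for local background and for trends within an array, with no scaling between arrays. The series matrix that the authors deposited is on a log2 scale: its differences between arrays had slope 1 and Pearson r 1 against the scanner values, and every probe had a median of 0 over the arrays. Its column medians were 0.00131 in siTfe3/Tfeb with iron, -0.087 in siTfe3/Tfeb, 0.0223 in siGFP with iron and -0.00423 in siGFP. Scale, centring and direction were settled by this comparison.

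Spots with outlier flags were dropped (3 probes lost all their spots), and repeated spots were averaged. Names came from the files and a RefSeq table (GRCm38.p6, names only): 33764 probes by accession, 10176 by symbol and 12662 with none. A gene was represented by its brightest probe and counted where that probe was well above background on the arrays compared. The spot SD rests on 299 repeated probes, of which only 14 probe and array pairs lay between -2 and 2. Named genes were all member probes, Tfe3, Tfeb, Mitf and Tfec, the up to 3 most different genes per list, and the 5 nearest to Fnip2. The members and lists were chosen with earlier results of these data known. Scripts used Python 3.11.15, pandas 2.3.3, R 4.3.3 and limma 3.58.1 and were tested on simulated data. All arrays shared 1 slide and 1 scan. Alternatives tried were median centring, quantile normalization, a normexp background step (offset 50) alone or followed by quantile normalization, the series matrix, the mean over all probes of a gene, and no filter on background.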

Additional observations from a re-analysis of the deposited data

Results flagged for a closer look

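The iron difference of Flcn had opposite signs in the 2 siRNA settings by both of its measured probes. By the brighter probe it was -0.054 in siTfe3/Tfeb cells and 0.176 in siGFP cells, a difference of -0.23 on the log2 scale, and the siTfe3/Tfeb value was smaller than the spot SD. The iron difference of Mtor also had opposite signs by its brighter probe, at -0.0071 in siTfe3/Tfeb cells and 0.133 in siGFP cells, a difference of -0.14. With a spot SD of 0.11, the siTfe3/Tfeb value cannot be told from 0 and the siGFP value was 1.2 spot SDs. Neither sign held under all settings: the siTfe3/Tfeb value was 0.048 with median centring, and the siGFP value -0.018 with the mean over all probes. The other Mtor probe was below 0 in both, at -0.13 in siTfe3/Tfeb cells and -0.17 in siGFP cells. Each group held 1 array, so neither difference was tested.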

How the results depend on the processing

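The 50 differences of members (10 genes in 5 comparisons) were recomputed under 7 alternatives, and 38 kept one sign under all 8 settings. The other 12 had a size of at most 0.13 in the values reported; they were those of Flcn with iron in siTfe3/Tfeb cells, Rraga, Rragb and Lamtor1 between siRNAs without iron, Rragb with iron in siGFP cells, Rragc and Rptor between siRNAs with iron, Lamtor1 with iron in siTfe3/Tfeb cells, Mtor with iron in both cultures, and Rragd and Rptor in the difference of iron responses. The median of the members between siRNAs with iron was 0.060 with median centring, where that of all genes was 0.075, against -0.034 as reported, where that of all genes was -0.019. The count of members at least 1.5-fold different with iron in siTfe3/Tfeb cells was 1 with median centring and 1 with the mean over all probes, Fnip2 in both, against 0 as reported. Without iron the median between siRNAs was -0.0193 with normexp correction, against 0.024 as reported. For all genes, median centring gave 778 at least 1.5-fold higher and 382 lower with iron in siTfe3/Tfeb cells in place of 647 and 476, and 522 and 252 in the difference of iron responses in place of 366 and 344. With normexp correction, alone or with quantile normalization, Rragb differences were as small as -0.11 with iron in siTfe3/Tfeb cells and -0.14 between siRNAs with iron, and Rragd differences between siRNAs as small as -0.12 with iron and -0.15 without it. Rragc between siRNAs without iron was 0.061 with the mean over its probes. Counts of members past 1.5-fold or 2 spot SDs under the alternatives were added after seeing the data. Median centring and the series matrix each move every gene of a comparison by 1 constant, for the series matrix at most 0.019 in size. The mean over all probes can move only members with more than 1 measured probe. Leaving out the filter on background moved none of the 50, as every member's brightest probe was well above background on all arrays. Keeping one sign under all 8 settings is therefore a weaker check than their number implies. The cause of the shifts with quantile normalization and normexp correction was not tested. No paired analysis was possible because each group held 1 array and the labels carry no replicate numbers. Low signal over background limits Rragb and Rragd most.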
